A study of Ovis aries with 10 samples.

Results

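The interleukin-1 family, with its receptors and decoys, was described in the adrenal glands of sheep fetuses through 10 genes, all of which were found among the 19316 rows of the authors' deposited table of differential expression. The genes were chosen by symbol. They are the agonist ligands IL1A, IL1B, IL18 and IL33, the antagonist IL1RN, the decoy receptor IL1R2, the signalling receptors IL1R1, IL18R1 and IL1RL1, and the co-receptor IL1RAP. None of the 10 symbols had more than 1 row. The glands came from fetuses at 102 days of gestation in an endotoxin group (5 libraries) and a control group given saline (5 libraries), and each group held 3 female and 2 male libraries. Endotoxin is lipopolysaccharide from the outer membrane of Gram-negative bacteria. The labels speak of an injection without saying whether it was into the fetus, name no breed, dose, route or interval after it, and do not say whether each library came from a separate ewe. The series title speaks of inflammation within the uterus. The libraries held 12494386 to 18324516 estimated counts each.

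Interleukin-1 signalling begins when IL-1 alpha or IL-1 beta binds the receptor IL1R1, which then recruits the co-receptor IL1RAP and passes the signal through MYD88 and IRAK kinases to NF-kB. The pathway is restrained at its first step by IL1RN, a ligand that occupies IL1R1 without recruiting the co-receptor, and by IL1R2, a receptor that binds IL-1 but lacks the signalling domain. IL-18 and IL-33 are related cytokines that use their own receptors, IL18R1 and IL1RL1, and IL-33 also depends on IL1RAP. In adult animals IL-1 is known as an activator of the hypothalamus, pituitary and adrenal axis, and adrenal cells of several species can make it.

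The authors' deposited table gives 1 mean per group in TPM, a measure of abundance corrected for transcript length and for library size that allows levels of different genes to be compared, and no value per library. The groups are called A and B there. A was read as control and B as endotoxin, and if that reading were wrong every direction below would turn. The tables with a value per library list 20781 gene IDs of a cattle form, and none of those IDs is paired with a symbol in the sources used here. Spread between libraries therefore enters only through the standard error (SE) of the authors' model. Fold changes below are the authors' score times that SE, on the log2 scale, with a 95% normal interval that is not adjusted for the number of genes. A gene was counted as changed at an adjusted p under 0.05 over all 19236 rows that carry a p. Markers of the labelled tissue were abundant in the authors' deposited table: STAR of the steroid-making cortex had a control mean of 481 TPM and an endotoxin mean of 1027 TPM, and TH of the catecholamine-making chromaffin cells had 1254 and 1343 TPM.

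With endotoxin the decoy receptor rose while no agonist ligand and no signalling receptor passed the threshold in either direction in the authors' deposited table. Of the 10 genes 1 rose, none fell and 9 did not pass, against 1.72% of all rows called in either direction, 1.29% higher and 0.426% lower. Among the 8 genes with a mean of at least 1 TPM 1 passed, beside 2.05% of rows at such levels, and at an adjusted p under 0.1 it was still 1 of the 10, beside 2.88% of all rows. The gene that rose was IL1R2. The antagonist IL1RN had the largest fold change of the 10 but missed the threshold, and IL33 had the lowest. At an unadjusted p under 0.05 there were 3 of the 10 genes, IL1R2, IL1RN and IL33, where 12.9% of all rows met the same condition in the authors' deposited table. The median log2 fold change of the 10 genes was 0.21, beside 0.0077 over all rows.

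**Figure D1:**
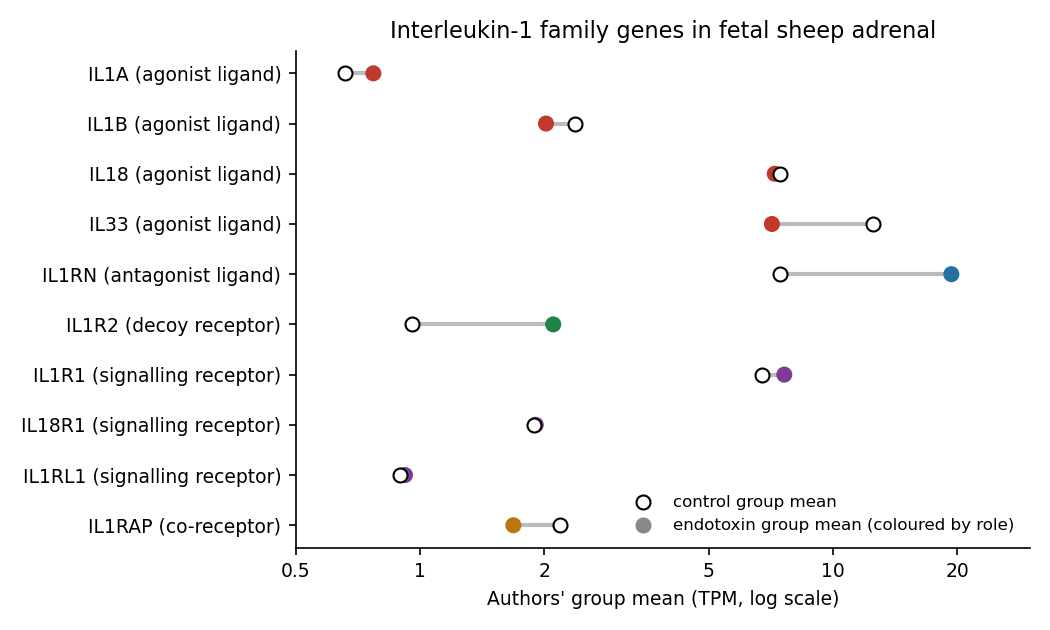
Group means of the 10 genes in the authors' deposited table (TPM, log axis), with open points for control and filled points for endotoxin, coloured by role. The points lie far apart for IL1RN (7.44 and 19.4 TPM), IL1R2 (0.955 and 2.10 TPM) and IL33 (12.5 and 7.12 TPM) and nearly coincide for IL18, IL18R1 and IL1RL1; the means carry no error bars because no value per library was to be had.

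Among the agonist ligands, IL1B, the secreted form of IL-1 that is made as a precursor and cut by caspase-1, had a control mean of 2.37 TPM and an endotoxin mean of 2.02 TPM in the authors' deposited table. Its log2 fold change was -0.11 ± 0.22 (SE), with an interval from -0.54 to 0.31 (adjusted p = 0.94). That interval runs from 0.689-fold to 1.24-fold, so a 2-fold rise in the endotoxin mean lies outside it. IL1A, the form of IL-1 that is active without cleavage and is released by damaged cells, was the lowest of the 10 in both groups, at 0.658 and 0.771 TPM in the authors' deposited table. Its log2 fold change of 0.39 ± 0.56 (SE; adjusted p = 0.898) came with an interval from 0.609-fold to 2.82-fold.

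IL18, a cytokine that drives interferon gamma production in lymphocytes, was among the better expressed genes of the family, with 7.46 TPM in control and 7.23 TPM in endotoxin in the authors' deposited table. The log2 fold change was 0.05 ± 0.23 (SE), with an interval from -0.41 to 0.51 (adjusted p = 0.972). Its sign is positive in the authors' model and negative from the group means, so no direction was assigned. IL33, an alarmin stored in the nuclei of endothelial, epithelial and fibroblastic cells, was the most abundant of the 10 genes in control glands, at 12.5 TPM in the authors' deposited table. The endotoxin mean was 7.12 TPM, and the log2 fold change was -0.67 ± 0.30 (SE), with an interval from -1.26 to -0.09. In the authors' deposited table IL33 had an unadjusted p of 0.0247 and, adjusted, 0.282, so it was not counted as a fall. Summed over the 4 agonists, the group means came to 23.0 TPM in control and 17.1 TPM in endotoxin, and IL33 made up most of that gap.

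IL1RN encodes the IL-1 receptor antagonist, which is secreted by monocytes, macrophages and neutrophils and also exists in an intracellular form. Its mean was 7.44 TPM in control and 19.4 TPM in endotoxin in the authors' deposited table, a ratio of means of 2.60. It ranked 3 in level among the 10 genes in control glands and 1 with endotoxin. The log2 fold change was 1.44 ± 0.52 (SE), with an interval from 0.42 to 2.45 (unadjusted p = 0.00572, adjusted p = 0.141), and the gene did not pass. The SE of IL1RN was larger than that of 97.7% of the 5262 rows whose mean lay within 2-fold of its own, where the median SE was 0.18 in the authors' deposited table. With such an SE a change of at least 3.32-fold would have been needed to pass. Which libraries carried the IL1RN signal could not be seen.

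IL1R2, the decoy receptor, rose from 0.955 TPM in control to 2.10 TPM with endotoxin in the authors' deposited table. The log2 fold change was 1.27 ± 0.30 (SE), with an interval from 0.68 to 1.86 and an adjusted p of 0.00456, which corresponds to 2.41-fold (1.60 to 3.63). By unadjusted p it was number 111 of the 19236 rows. Its SE was close to the ordinary one for its level, larger than in 42.5% of the 2945 rows with a mean within 2-fold of its own in the authors' deposited table. The level itself was low in both groups: 29.5% of all rows had a lower mean. On the scale of the authors' log2 column, which adds 1 TPM to both means, the difference was 0.67, since the added TPM is large beside the level of this gene.

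**Figure D2:**
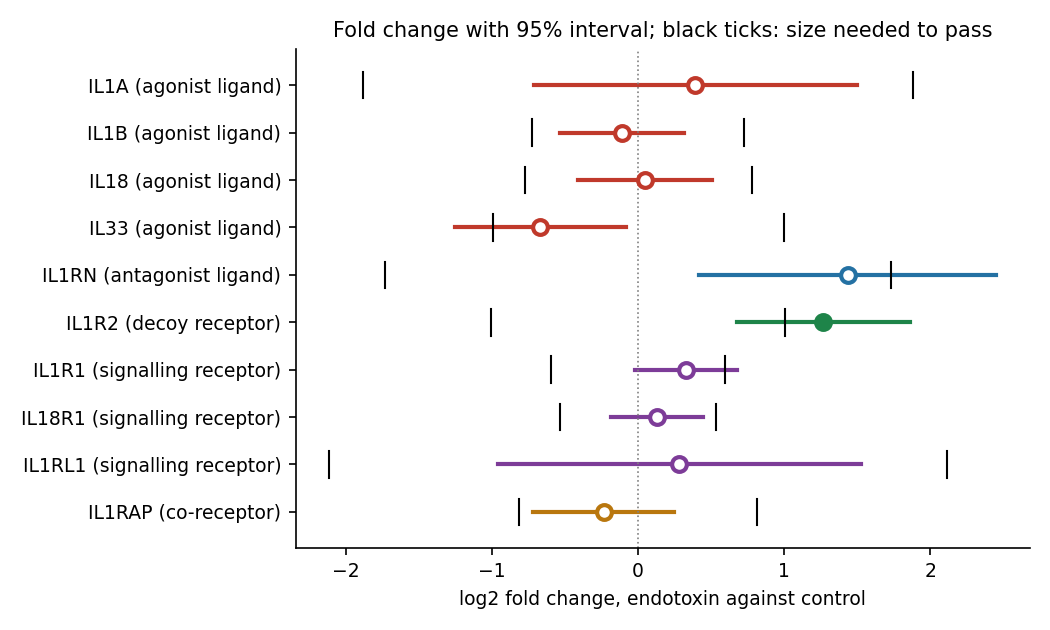
Log2 fold change of each gene between endotoxin and control from the authors' deposited table (points) with its 95% interval (coloured lines); black ticks mark the size each gene would have needed to pass an adjusted p of 0.05, and a filled point is a gene that passed. IL1R2 at 1.27 lies beyond its tick, and IL1RN at 1.44 lies short of its own tick at 1.73.

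The group means of each signalling receptor were close, and none of these receptors passed, with intervals of unlike width. IL1R1, the receptor through which both forms of IL-1 signal, had 6.74 TPM in control and 7.63 TPM in endotoxin in the authors' deposited table. Its log2 fold change was 0.33 ± 0.18 (SE), with an interval from -0.03 to 0.68 (adjusted p = 0.443), and a change of 1.51-fold would have passed. IL18R1, the ligand-binding chain of the IL-18 receptor, had 1.89 and 1.91 TPM in the authors' deposited table, with a log2 fold change of 0.13 ± 0.16 (SE; interval -0.19 to 0.44; adjusted p = 0.865). That SE was the smallest of the 10. IL1RL1, the IL-33 receptor also called ST2, is made both as a membrane receptor and as a soluble decoy, which a gene total does not separate. It had 0.896 and 0.919 TPM in the authors' deposited table, and its log2 fold change of 0.28 ± 0.63 (SE; adjusted p = 0.957) had the widest interval of the 10, from -0.96 to 1.53. A change of 4.34-fold would have been needed for IL1RL1 to pass.

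IL1RAP, the co-receptor shared by the IL-1 and IL-33 receptors, went from 2.18 TPM in control to 1.68 TPM with endotoxin in the authors' deposited table. The log2 fold change of -0.24 ± 0.25 (SE; interval -0.72 to 0.24; adjusted p = 0.805) did not pass. In 5 of the 10 genes, IL1B, IL18, IL1R1, IL18R1 and IL1RAP, the whole interval lay within a 2-fold change either way.

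**Figure D3:**
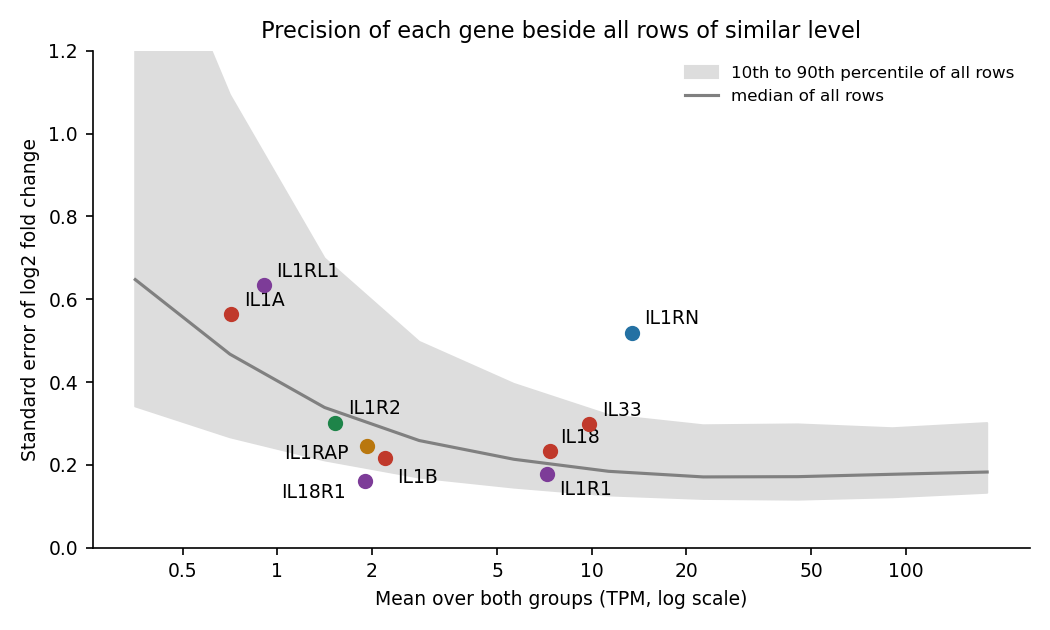
Standard error of the log2 fold change against the mean level (TPM, log axis) for the 10 genes in the authors' deposited table, coloured by role as in the other plots; the grey band spans the 10th to 90th percentile of all rows and the grey line is their median. IL1RN, at an SE of 0.52, lies above the band for its level (0.32 at 8 to 16 TPM), and IL18R1, at 0.16, lies below it.

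Set side by side as levels in TPM, the inhibitory genes and their partners differed in balance between the group means. IL1RN stood at 2.46 times the summed level of IL1A and IL1B in control and at 6.94 times with endotoxin in the authors' deposited table. IL1R2 stood at 0.142 times the level of IL1R1 in control and at 0.276 times with endotoxin. The decoy thus remained the less abundant of the pair of IL-1 receptors in both group means. The 4 agonists made up 53.4% of the summed level of the 10 genes in control and 33.8% with endotoxin in the authors' deposited table, while IL1RN alone went from 17.2% to 38.2%. The 3 signalling receptors held 22.1% and 20.6%. Of the genes in these ratios only IL1R2 passed the threshold, and IL1RN and IL33, which weigh heavily in the shares, did not. These ratios come from group means and have no error, and the difference in response between a decoy and a signalling receptor was not tested.

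IL18BP encodes a soluble binding protein that inhibits IL-18, and only its RNA was measured here. IL18BP was more abundant than any of the 10 genes, at 36.5 TPM in control and 43.7 TPM with endotoxin in the authors' deposited table, with a log2 fold change of 0.33 ± 0.28 (SE; adjusted p = 0.71). It stood at 4.89 times the level of IL18 in control and at 6.04 times with endotoxin. SIGIRR, a receptor of the same family that dampens signalling, was at 9.62 and 11.2 TPM in the authors' deposited table (log2 fold change 0.33 ± 0.16, SE; adjusted p = 0.342). IL1F10, which encodes IL-38, was at 1.14 and 0.801 TPM in the authors' deposited table (-0.39 ± 0.26, SE; adjusted p = 0.564). Of the 12 further ligands and receptors of the family, 7 were found under their symbols and none passed, beside 1.72% of all rows called in the authors' deposited table. At an unadjusted p under 0.05 there was 1 of the 7, near the 12.9% of all rows. The list's median log2 fold change was 0.33.

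Downstream of the receptors the adaptors and kinases were nearly level. Of 19 genes, all found in the authors' deposited table, 1 rose and none fell, beside 1.29% of all rows called higher, and the list's median log2 fold change was 0.06. At an unadjusted p under 0.05 there was 1 of the 19, beside 12.9% of all rows. The gene that rose was IRAK1, a kinase recruited by MYD88, from 14.9 TPM to 18.2 TPM in the authors' deposited table (0.41 ± 0.12, SE; adjusted p = 0.0393). MYD88 itself, the adaptor of IL-1 and Toll-like receptors, was at 25.1 and 26.9 TPM in the authors' deposited table (0.23 ± 0.16, SE; adjusted p = 0.582). The NF-kB subunit RELA (0.10 ± 0.09, SE) and the p38 kinase gene MAPK14 (0.12 ± 0.13, SE) were the most abundant of the list and did not pass in the authors' deposited table.

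Of the intracellular and secreted inhibitors of signalling, 12 of 16 were found in the authors' deposited table, and of the 11 with a p 1 rose and none fell, beside 1.29% of all rows called higher and 0.426% called lower. That gene was TNFAIP3, which encodes the ubiquitin-editing enzyme A20, from 1.18 TPM to 2.42 TPM in the authors' deposited table (1.17 ± 0.34, SE; adjusted p = 0.0407). Of the abundant inhibitors beside IL18BP, NFKBIA, the inhibitor that holds NF-kB in the cytoplasm, was at 0.31 ± 0.19 (SE; adjusted p = 0.525) and the A20 partner TNIP1 at 0.25 ± 0.13 (SE; adjusted p = 0.397) in the authors' deposited table. Over the list the median log2 fold change was 0.32, with values from -0.42 to 1.17, and 9 of the 12 were positive. At an unadjusted p under 0.05 there were 5 of the 11 with a p, in both directions, beside 12.9% of all rows.

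More genes passed among those that sense damage and cut IL-1 family precursors. Of 18 listed genes 11 were found in the authors' deposited table, and 4 rose and none fell, or 36.4% beside 1.29% of all rows called higher. At an unadjusted p under 0.05 there were 6 of the 11, beside 12.9% of all rows. CASP1 and PYCARD, which encode the protease and the adaptor of the inflammasome, were not found under those symbols and are not analysed here. NLRP3, the sensor that assembles the best known inflammasome, rose from 0.314 TPM to 0.620 TPM in the authors' deposited table (1.10 ± 0.29, SE; adjusted p = 0.0173). NLRP1, another inflammasome sensor, rose from 0.444 TPM to 0.932 TPM in the authors' deposited table (1.34 ± 0.36, SE; adjusted p = 0.0174). Both sensors had means under 1 TPM in each group. A minimum mean of 1 TPM leaves them out, and of the 4 genes that rose it keeps ELANE and PRTN3, described next.

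The other genes of that list that rose encode serine proteases of neutrophil granules, which can cut IL-1 family cytokines outside cells. ELANE, neutrophil elastase, went from 0.926 TPM to 7.79 TPM in the authors' deposited table (3.24 ± 0.55, SE; adjusted p = 3.67e-06). PRTN3, proteinase 3, went from 0.199 TPM to 2.75 TPM in the authors' deposited table (3.73 ± 0.87, SE; adjusted p = 0.00359). GSDMD, the pore protein through which mature IL-1 beta leaves the cell, was at 7.84 and 11.8 TPM in the authors' deposited table and missed the threshold (0.71 ± 0.22, SE; adjusted p = 0.0633). NEK7, a partner of NLRP3, at -0.27 ± 0.19 (SE; adjusted p = 0.603) and GSDME, a second pore protein, at -0.39 ± 0.21 (SE; adjusted p = 0.433) did not pass in the authors' deposited table.

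**Figure D4:**
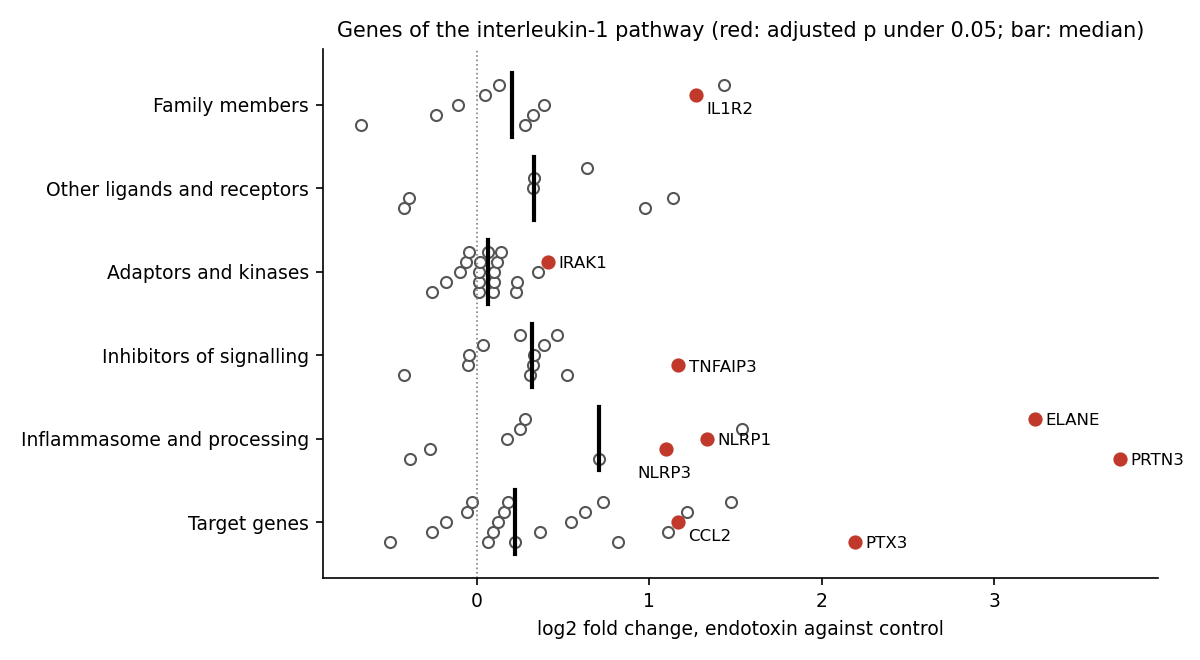
Log2 fold change between endotoxin and control in the authors' deposited table for the 10 family genes and 5 lists of further pathway genes; each point is a gene, red points passed an adjusted p of 0.05 and black bars are medians. The red points all lie to the right of 0, and the list of inflammasome and processing genes holds 4 of them.

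Of 28 genes known as targets of IL-1 and NF-kB, 21 were found in the authors' deposited table, and 2 rose and none fell, beside 1.29% of all rows called higher. The list's median log2 fold change was 0.22, beside 0.0077 over all rows. At an unadjusted p under 0.05 there were 3 of the 21, near the 12.9% of all rows. PTX3, a secreted pattern recognition protein, rose from 1.23 TPM to 5.26 TPM in the authors' deposited table (2.20 ± 0.44, SE; adjusted p = 0.000162). CCL2, a monocyte chemoattractant, rose from 116 TPM to 242 TPM in the authors' deposited table (1.16 ± 0.34, SE; adjusted p = 0.0404). IER3, an early response gene, was level at 38.7 and 39.5 TPM, and PTGES, a prostaglandin E synthase, was at 0.73 ± 0.40 (SE; adjusted p = 0.434) in the authors' deposited table. Over all 5 lists together 68 of 91 distinct genes were found, and 8 of the 67 with a p rose (11.9%, beside 1.29% of all rows) and none fell. The lists were chosen with earlier results of these data known, so neither this share nor that of a single list is a test. The list of inflammasome and processing genes holds 4 of the 8, among them the neutrophil proteases ELANE and PRTN3.

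IL1R2 and IL1RN are both expressed by neutrophils and by monocytes and macrophages, and markers of these cells differed between the groups. Of 10 neutrophil markers 8 were found in the authors' deposited table, and 6 rose and none fell, beside 1.29% of all rows called higher. Their summed level was 50.9 TPM in control and 1927 TPM with endotoxin, of which S100A8, S100A9 and S100A12, calcium-binding proteins of the neutrophil cytoplasm, made up 45.4 and 1898 TPM. The other 5 went from 5.52 TPM to 28.7 TPM, or 5.20-fold. CSF3R, the receptor for granulocyte colony-stimulating factor, rose from 0.236 TPM to 8.44 TPM in the authors' deposited table (5.44 ± 0.86, SE; adjusted p = 1.66e-07). ELANE belongs to this list as well as to that of processing enzymes. CXCR1 and CXCR2, which also mark neutrophils, were not found under those symbols. Of 9 monocyte and macrophage markers 8 were found, and 2 rose and none fell, beside 1.29% of all rows called higher. The sum was 104 TPM in control and 138 TPM with endotoxin in the authors' deposited table. Those that rose were MARCO, a scavenger receptor (3.28 ± 0.45, SE), and CD14, the endotoxin co-receptor (1.05 ± 0.24, SE), in the authors' deposited table. No marker of either list was listed at 0 in a group mean. The part of these cells in the rise of IL1R2, in the level of IL1RN and in the rise of ELANE, PRTN3 and NLRP3 was not tested. In whole glands a change in the number of cells of a type and a change in RNA per cell cannot be told apart.

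Cell types known to express IL33 or its receptor IL1RL1 were also described by their markers. Over all rows 1.72% were called in either direction, so none called in lists as short as those below is near that share. Of 7 endothelial markers none passed, with sums of 143 TPM in control and 155 TPM with endotoxin in the authors' deposited table. Of 5 fibroblast markers found none passed, with sums of 1576 TPM in control and 999.95 TPM with endotoxin, and all 5 had a negative log2 fold change with a median of -0.47 in the authors' deposited table. The 4 mast cell markers found also had negative values and none passed, with sums of 9.79 and 4.86 TPM in the authors' deposited table. KIT made up 6.32 and 3.66 TPM of these sums. The SEs were wide, from 0.31 for KIT to 1.45 for MS4A2, whose value was -0.03. None of the 9 lymphocyte markers passed, and 6 had a positive log2 fold change, with a median of 0.26. Their sums were 83.2 and 65.3 TPM in the authors' deposited table, and 17.5 and 16.7 TPM without GATA3, which is also a transcription factor of chromaffin cells. Their part in the IL33 and IL1RL1 values was not tested. Markers of the gland's own cells were set beside the family too. Of 6 cortex markers 4 rose and none fell, beside 1.29% of all rows called higher and 0.426% called lower. Their sum was 1963 TPM in control and 4542 TPM with endotoxin in the authors' deposited table. Group B was read as endotoxin because cortisol synthases were higher in it. The direction of the cortex markers is therefore not a result independent of that reading. Of 4 chromaffin markers found none passed, with sums of 8872 and 8414 TPM in the authors' deposited table. PNMT went from 330 TPM to 1306.5 TPM (2.07 ± 0.73, SE; adjusted p = 0.123), and TH was at 0.23 ± 0.26 (SE). CHGA at -0.03 ± 0.24 (SE) and CHGB at -0.43 ± 0.28 (SE) had negative values. The part of the gland's own cells in the values of the family genes was not tested.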

How the data were processed

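Libraries of 10 fetal sheep adrenals were made with a directional RNA kit, according to the labels' protocols, and sequenced. Tools listed in the submitters' processing notes, with no role, are fastp 0.19.4, Salmon 0.9.1 and DESeq2, and the build listed is Oar_v3.1. The table of differential expression that the authors deposited has 19316 rows, 13881 of them with a symbol. Its columns hold group means, a log2 value, an SE, a score and p-values with their adjusted form. The means were read as TPM because each column sums to 1000000. The deposited log2 values match the log2 ratio of the means after adding 1 TPM. The deposited p-value is the two-sided normal p of the score, so score times SE was taken as the log2 fold change of the authors' model. Rows with p set to 1, 80 in all, were left without a p. The adjusted p-values equal a Benjamini-Hochberg adjustment over the other 19236 rows. Over the 14402 rows whose mean reached 1 TPM, log2 fold changes had a median of 0.012 on the model scale and -0.0997 on the scale of TPM plus 1.

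The reading of B as endotoxin rests on the series title, where cortisol synthases are high after inflammation, and on these genes being higher in B. It was checked on changes of at least 8-fold in mean TPM plus 1. The labelled TPM table that the authors deposited has 16 upward and 3 downward changes with endotoxin, and B has 19 and 3. The deposited table of estimated counts was used for depth. Of its 20781 gene IDs 0 are in the reference gene table (assembly ARS-UI_Ramb_v3.0), so the planned edgeR test per library was not run. The score needed to pass, 3.33, was the smallest among the rows called. Sizes needed are that score times each SE, which takes the threshold as fixed.

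The genes, their roles and all lists were chosen with earlier results of these data known. The rule named every family gene and, from each further list, up to 6 genes past the threshold and the 3 with the highest mean, as well as the nearest named protein-coding genes on the chromosome. Of the marker lists and of the neighbours on the chromosome, only those the text needs are named. CASP1, PYCARD, CXCR1 and CXCR2 are named outside the rule as not found. The adjustment was tested on simulated scores. Calculations used Python 3.11.15, pandas 2.3.3 and scipy 1.17.1.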

Additional observations from a re-analysis of the deposited data

How the results depend on the processing

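The number of family genes past the threshold was 1 under each alternative that could be run: adjustment over rows whose mean reached 1 TPM, adjustment over rows with a symbol, and an adjusted p under 0.1. IL1R2 had adjusted p-values between 0.00381 and 0.00512 over these, and IL1RN between 0.116 and 0.141. Over 48 alternative values for single genes, 47 stayed within 1 SE or on the same side of the threshold. The exception was IL1R2 at 0.67 on the scale of mean TPM plus 1, against 1.06 with 0.1 TPM added and 1.27 in the authors' model. IL18 changed sign with either added amount, to -0.04 in both. IL1A and IL1RL1, with means under 1 TPM, gave no value under the filter on low means, and no gene had a second row to exchange. For the further pathway genes the count of 8 became 6 with the filter and 9 at an adjusted p under 0.1. The called genes that the filter left out were the sensors NLRP1 and NLRP3. No paired analysis was possible because the authors' deposited table holds 1 mean per group and the labelled tables carry IDs that are not paired with symbols. For the same reason DESeq2, no filter on low counts, sex as a covariate and leaving out each replicate were not run for these genes, so whether 1 library decides a value is not known. Precision was lowest for IL1RL1, IL1A and IL1RN, where changes under 4.34-fold, 3.68-fold and 3.32-fold could not have passed at their SE. Counting error and spread between libraries were not separated.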

Other observations

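Many of these genes lie in clusters, and neighbours did not share one pattern. In the reference gene table (assembly ARS-UI_Ramb_v3.0), IL18RAP, IL18R1, IL1RL1, IL1RL2, IL1R1 and IL1R2 follow one another among named protein-coding genes, with MAP4K4, a kinase gene, after IL1R2. IL1R2 rose in the authors' deposited table, while IL1R1 on one side was at 0.33 and MAP4K4 on the other at 0.01 ± 0.15 (SE; adjusted p = 0.997). IL18RAP, the accessory chain of the IL-18 receptor, was at 0.273 and 0.449 TPM in the authors' deposited table (0.98 ± 0.63, SE; adjusted p = 0.559). IL1B and IL1A are adjacent, and the gene after IL1A is CKAP2L, a protein of the mitotic spindle, which fell from 3.09 TPM to 1.80 TPM in the authors' deposited table (-0.67 ± 0.17, SE; adjusted p = 0.0136). PSD4 and IL1F10, on either side of IL1RN, were at -0.15 ± 0.27 and -0.39 ± 0.26 (SE) in the authors' deposited table and did not pass.

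In the table of enriched pathways (the authors' deposited table), which names the changed genes of each category, IL1R2 appears in 6 of the 95 distinct categories. The table lists called genes, and no other family gene was called. Among them is cytokine-cytokine receptor interaction, with 8 of 172 genes changed (the authors' unadjusted p = 0.0336, Benjamini-Hochberg adjusted p = 0.263 over the 95). Of the same 95 categories of the authors' deposited table, IRAK1 appears in 9 and NLRP3 in 3, counted separately.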
